A study of Mus musculus with 2 samples.

Results

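Fibroblasts of the injured mouse spinal cord were taken from the library made 3 days post injury (3 dpi) as barcodes with at least 1000 unique molecular identifiers (UMIs, the counted RNA molecules) and a sum of Col1a1, Col1a2 and Col3a1 of at least 30 UMIs per 10000. They also had to lie below 10 per 10000 for Cldn5, a tight junction gene of endothelial cells, below 20 for the sum of C1qa, C1qb and C1qc, the C1q genes of microglia and macrophages, below 100 for S100a8 plus S100a9 of neutrophils, and below 3 for Ptprz1 of glial precursors and astrocytes. These limits were met by 626 of 12743 barcodes with at least 1000 UMIs, a share of 4.91% [4.54 to 5.30]. The library held 13594 barcodes in all, and both libraries together 23732. The collagen sum of the 626 barcodes had a median of 121 per 10000 and ran from 30.3 to 718. The highest level just outside the limit was 29.9, and 58 barcodes that met the other limits lay between 15 and 30, against 125 between 30 and 60 and 501 at 60 or above.

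Single cells of spinal cord were profiled in 2 droplet libraries, 1 of sham mice and 1 of mice at 3 dpi. Each library pooled 5 male and 5 female C57BL/6 mice aged 8 weeks, and cells came from a piece of cord 8 mm long around the injury site. No transgene, drug or genotype is given in the labels for either group, and the labels used here do not say how the cord was injured. With 1 library per group there is no replicate and no test, and the library and the injury cannot be told apart. Levels are summed UMIs of a group of cells per 1000000 UMIs of that group (CPM). Brackets hold 95% exact intervals, Clopper-Pearson for shares and Poisson for CPM, which cover counting error only and leave out the spread between cells and mice.

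Fibroblasts are the cells that make and remodel the fibrous extracellular matrix. In the healthy spinal cord they lie in the meninges and around larger vessels, and after an injury they take part in the fibrotic scar. Textbook fibroblast biology links their matrix output to TGF-beta signalling, their contractile form (the myofibroblast) to smooth muscle actin, and pericytes of the vessel wall to the PDGF receptor Pdgfrb.

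The label was checked against its 5 markers. Col1a1, Col1a2 and Col3a1 chose the cells and so are a description only. Dcn, the collagen-binding proteoglycan decorin, was at 2977 CPM [2946 to 3009] in fibroblasts and 52.5 CPM in the other 12117 barcodes at 3 dpi, with UMIs in 97.9% and 9.11% of cells. Its level per cell had quartiles of 7.10, 21.2 and 50.7 UMIs per 10000. Timp1, an inhibitor of matrix metalloproteinases, was at 2913 CPM [2882 to 2944] against 112, with UMIs in 99% and 24.6% of cells. All 11 fibroblast identity genes outside the rule, Dcn and Timp1 included, among them Lum, Pdgfra, Fbln1 and Cdh11, were at least 2-fold higher than in the other barcodes. At 3000 UMIs per cell, which left out 16 fibroblasts and 154 of 5695 C1q barcodes, Dcn was seen in 89.3% of fibroblasts and 2.53% of C1q barcodes, which should lack it. Unthinned the shares were 97.9% and 9.45%, at median depths of 16299 and 12480 UMIs.

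Markers of other cell types were low for the most part but not absent. Summed over 12 macrophage and microglia genes, 3 of which are the C1q genes of the limit, the median fibroblast held 7.51 UMIs per 10000 against 339 in the C1q barcodes, with no listed gene at 0. For 8 oligodendrocyte genes the median was 2.25, and for 10 endothelial genes, Cldn5 of the limit among them, 0.929 against 83.1 in the Cldn5 barcodes. These contrasts are partly set by the limits. On the list of precursor and astrocyte markers, 4 of 6 measured genes were called lower in fibroblasts than in the other barcodes, but Slc1a3, a glutamate transporter, and Gja1, a gap junction gene, were at 51.3 and 134 CPM against 10.3 and 12.7. Of 6 ependymal markers only Rarres2 was measured, at 104 CPM against 6.59. The part of other cells in these levels was not tested. A score against simulated doublets marked 49 of the 626 (7.83%), with the number marked in the library set by an assumed rate. Of these, 43 made up 2 small clusters described below. Fibroblasts were deep, with a median of 16299 UMIs (1257 to 75304) and 4145.5 genes, against 9477 UMIs in the other barcodes. The 2 libraries shared 39 barcode sequences, 1 of them a fibroblast's.

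In the sham library the same limits were met by 16 of 9894 barcodes, or 0.162% [0.0925 to 0.262]. Their collagen sum ran from 31.2 to 1990 per 10000 with a median of 71.0, and 15 of the 16 held a Dcn UMI. With so few cells, no gene of these 16 was compared with the 3 dpi fibroblasts. In pooled tissue, fewer captured fibroblasts and less collagen RNA per fibroblast cannot be told apart from these shares. As a sham reference for vessel wall genes, 528 sham barcodes with Rgs5, a pericyte gene, at 5 per 10000 or more and low collagen are called sham mural cells. They were shallow, with a median of 1994.5 UMIs, and their levels stand beside those of 3 dpi cells for reference only, as they come from the other library.

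**Figure D1:**
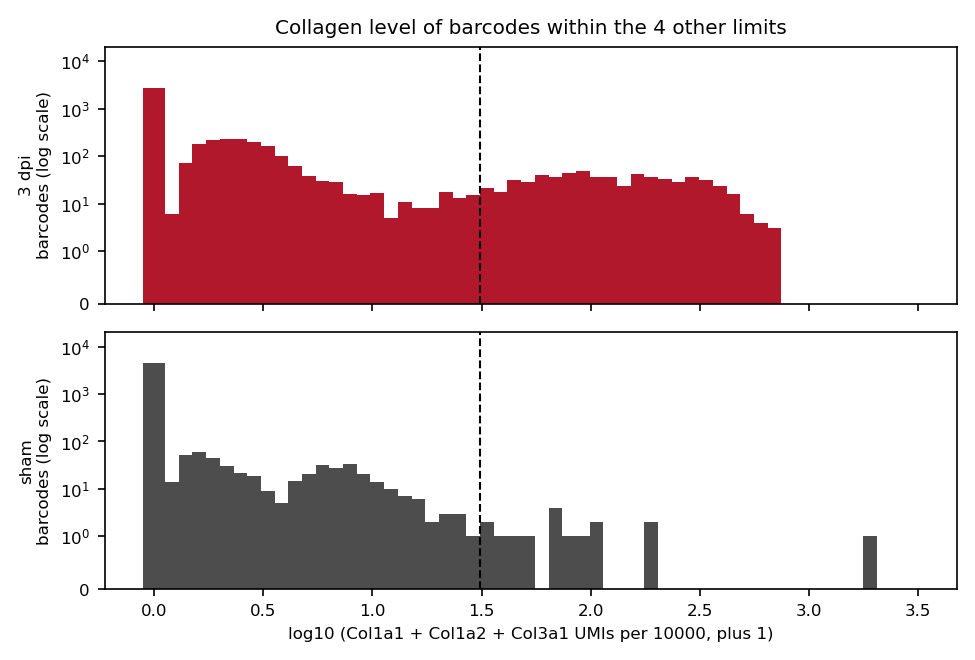
Collagen level of barcodes that met the 4 other limits, as log10 of the sum of Col1a1, Col1a2 and Col3a1 UMIs per 10000 plus 1, with the number of barcodes on a log axis; the dashed line marks the limit of 30 per 10000. The 3 dpi library has 626 barcodes to the right of the line and 58 between 15 and 30 per 10000, and the sham library has 16 to its right.

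Collagens beyond the 3 of the rule were high as well. Genes were compared with the other 3 dpi barcodes as log2 ratios with 10 CPM added to both sides, among genes at 20 CPM or more on either side, and called at a 2-fold ratio. Of 6950 genes, 837 (12%) were higher and 852 (12.3%) lower in fibroblasts, and the median log2 ratio was 0.09. The cells were chosen on collagens, so the counts that follow are a description. Of 17 measured collagens outside the rule, 16 were higher and none lower, with a median log2 ratio of 2.79. Col5a2, a partner of the fibrillar collagens, was at 850.1 CPM against 15.3 in the other barcodes. Col8a1, a network-forming collagen, was at 775 against 11.4, and Col12a1, which binds the surface of fibrils, at 535 against 11.2. The collagen VI chains Col6a1, Col6a2 and Col6a3 were at 788, 532 and 335 CPM against 15.2, 11.8 and 6.40.

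The machinery that folds, trims and crosslinks collagen was high with it. Of 21 measured genes on that list, 14 were higher and none lower, with a median log2 ratio of 2.24. Lox, the lysyl oxidase that starts crosslinks, was at 728 CPM [713 to 744] and at most 4.07 CPM in the Cldn5, C1q, S100a8/9 and Ptprz1 barcodes. Serpinh1, the collagen chaperone Hsp47, was at 1601 CPM against 677 in the Cldn5 barcodes and 13.5 in the C1q barcodes. Pcolce, which speeds the removal of the procollagen tail, was at 439 against 8.30, and Plod2, a lysyl hydroxylase, at 502 against 14.9. Of 20 genes of the general secretory pathway and unfolded protein response, 3 were higher, a share near the 12% of all genes. Only 1 was lower, beside 12.3% of all genes, and the median was 0.40. The 3 higher genes were Kdelr3 and Kdelr2, which return proteins to the endoplasmic reticulum, and Creb3l1, a membrane-bound transcription factor of secretory cells. Kdelr3 stood at 231 CPM against 9.07, and Creb3l1 at 184 against 14.

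Among 32 measured matrix glycoproteins and proteoglycans, 25 were higher and 2 lower, with a median of 2.70. Mgp, the matrix Gla protein that limits calcification, was at 5439 CPM [5397 to 5482] against 113, with 3600 in sham mural cells. Of genes of elastic fibres on this list, Eln (elastin) was at 770.2 against 11.2 CPM, Mfap5 at 569.97 against 6.55 and Fbn1 (fibrillin) at 479.6 against 11. Bgn, the proteoglycan biglycan, was at 1478 against 39.1. Fn1, fibronectin, was at 1589 CPM beside 1100 in the C1q and 1058 in the Cldn5 barcodes. The 2 lower genes were Spp1 (osteopontin), at 2189 against 22571 CPM, and Thbs1 (thrombospondin), at 166 against 506.

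Basement membrane genes were also called higher, 10 of 11 with a median of 1.60, but the Cldn5 barcodes were above the fibroblasts for Col4a1, Col4a2 and Hspg2. Col4a1 and Col4a2, the main collagen chains of vessel basement membrane, were at 259.8 and 156 CPM in fibroblasts and 1315 and 949 in the Cldn5 barcodes. Hspg2, perlecan, was at 147 and 257. Of 22 matrix proteases and inhibitors, 14 were higher and 3 lower, with a median of 1.51. Adamts5, an aggrecanase, was at 235 CPM against 7.58, and Mmp14, a membrane-bound collagenase, at 218 against 59.8. The 3 lower were Mmp9, Timp4 and Ctsl, of which the lysosomal protease Ctsl stood at 920.4 against 2045.

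Genes known from the meninges and the perivascular space were high as well, 19 of 24 with 1 lower and a median of 2.51. Foxd1, a forkhead factor of stromal precursors, was at 335 CPM against 7.57, Twist1 at 171 against 4.24, Osr1 at 101 against 2.08 and Foxc1, needed for meninges to form, at 128 against 7.02. Foxd1 and Foxc1 were not limited to fibroblasts, since sham mural cells held 229.9 and 195 CPM. Retinoic acid genes followed. Crabp2, which carries retinoic acid to the nucleus, was at 426 CPM [414 to 438] and at most 2.45 in the 4 other groups, and Stra6, a retinol transporter, was at 136 against 3.81. On the list of Wnt and retinoic acid genes 12 of 13 were higher and none lower, with a median of 2.95. Sfrp4, a secreted Wnt inhibitor, was at 787 CPM against 9.61, Wnt4 at 166 against 3.20 and Wnt2 at 87.1 against 1.15.

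TGF-beta genes were called higher in 15 of 25 cases and lower in 1, with a median of 1.83. Among ligands, Tgfb2 was at 79.9 CPM against 6.07 and Inhba, the activin subunit, at 184 against 11.4, whereas Tgfb1 was at 95.1 CPM beside 243 in the C1q and 239.9 in the Cldn5 barcodes. Among targets, Ctgf was at 237 CPM against 9.89 and Cyr61 at 210.4 against 28.4 and 197 in the Cldn5 barcodes. Fstl1, a secreted modulator of BMP signals, was at 1402 against 28.5. On the IGF list 7 of 9 genes were higher and none lower, with a median of 2.14. Its binding proteins Igfbp5 and Igfbp6 were at 1167 and 1100 CPM against 21.3 and 35.8, and the ligand Igf1 at 246 against 83.7, with 138 in the C1q barcodes.

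Of 7 measured PDGF and FGF genes, 3 were higher, all of them receptors, and Pdgfb was lower. Fgfr1 was at 205 CPM against 22.6. Pdgfra was at 88.4 CPM [83.1 to 93.9] in fibroblasts and higher, at 321, in the Ptprz1 barcodes, where it marks oligodendrocyte precursors. Pdgfrb was at 67.8 CPM [63.2 to 72.7], above 35.7 in the Cldn5 barcodes and far below 1565 CPM in sham mural cells. Of 10 measured axon guidance genes, 8 were higher and 2 lower. Plxna2, a semaphorin receptor, was at 104 CPM against 10.7, Slit2, a repulsive ligand, at 34.7 against 1.49 and Ntn1, netrin, at 50.5 against 7.97.

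Chemokines divided. Of 19 measured chemokines and cytokines, 8 were higher and 7 lower, with a median log2 ratio of 0.09, the same as over all genes. Cxcl5, a neutrophil-attracting chemokine, was at 240.3 CPM [231 to 249], with 20.9 in the Ptprz1 barcodes and at most 2.44 in the other 3 groups. Cxcl1, with the same receptor, was at 425 CPM, with 157 in the Cldn5 barcodes. The monocyte chemokine Ccl7 was at 346 CPM beside 187 in the C1q barcodes, and Ccl2 at 401 beside 463. Cxcl12 was at 153 CPM, below 458 in the Cldn5 barcodes. Il11, a cytokine of the IL-6 family, was at 67.1 CPM with at most 14.7 in the 4 groups, and Il6 at 22. Il1b and Cxcl2, which neutrophils make in amount, were at 33.3 and 120.4 CPM in fibroblasts and 6824 and 7936 in the S100a8/9 barcodes.

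**Figure D2:**
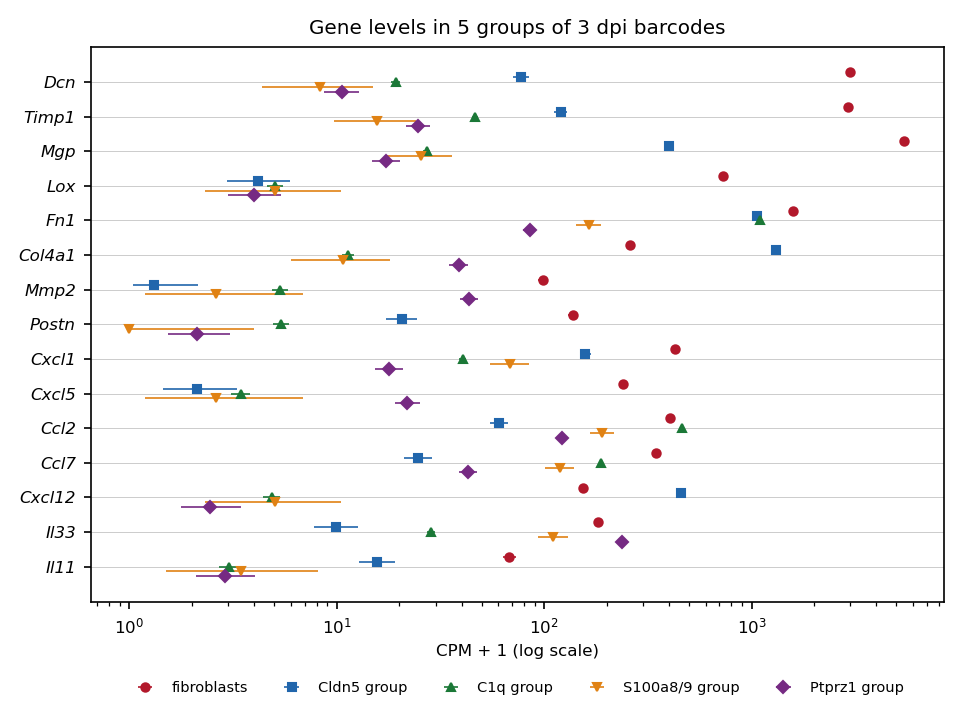
Level of 15 genes as CPM plus 1 on a log axis in 5 groups of 3 dpi barcodes; points are summed levels and bars 95% Poisson intervals. Fibroblasts (red circles) are far right of every other group for Dcn, Timp1, Mgp and Lox, but the Cldn5 group is right of them for Col4a1 and Cxcl12, the C1q group for Ccl2 and the Ptprz1 group for Il33.

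Receptors for inflammatory signals were present. Of 16 measured cytokine receptors 7 were higher and 2 lower. Il1r1, the IL-1 receptor, was at 49.7 CPM against 5.63, Osmr, the oncostatin M receptor, at 62.1 against 5.57 and Il6st, its shared signalling chain, at 138 against 36.5. The adhesion genes Cd44, Itga5 and Pdpn, among 10 of 15 called higher, were at 310.3, 178 and 217 CPM against 149, 43.9 and 76.8. Of 5 measured complement genes, 3 were higher and 1 lower. Serping1, the C1 inhibitor, was at 327 CPM against 6.45. Interferon and MHC class I genes went both ways, with 3 of 12 higher and 6 lower. The 3 higher were the membrane proteins Ifitm1, Ifitm2 and Ifitm3, while B2m, the light chain of MHC class I, was at 179 against 596 CPM. Immediate early genes, which also move with tissue digestion, were higher in 5 of 22 cases, with a median of 0.67. Egr1 was among the 5, at 585 CPM against 176, while Fos, at 1256 against 773, was not, and the part of digestion in these levels was not tested.

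The fibroblasts were divided into 3 states by the levels of a few genes. Pdgfrb-high cells had at least 2 Pdgfrb UMIs and 3 per 10000, and numbered 31 of 626 (4.95% [3.39 to 6.96]). Acta2-high cells had at least 2 UMIs of Acta2, smooth muscle actin, and 10 per 10000, and numbered 60 (9.58% [7.39 to 12.2]). Cycling cells had at least 2 UMIs and 2 per 10000 of Mki67 plus Top2a, both made by dividing cells, and numbered 168 (26.8% [23.4 to 30.5]). None of these states applied to 397 cells. The states are ranges of a level, not types. Within a factor of 2 below the threshold lay 67, 46 and 62 cells, in the order above, and within a factor of 2 above it 27, 36 and 58 cells. Depth differed with state, with medians of 12072 UMIs in Pdgfrb-high, 21419.5 in Acta2-high and 23891.5 in cycling cells. After thinning to 3000 UMIs per cell the shares of the 610 remaining cells were 3.77%, 10.7% and 13.8%.

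The states overlapped in part. Of 31 Pdgfrb-high cells 3 were Acta2-high (9.68% [2.04 to 25.8]), next to 9.58% of the other fibroblasts. Of 60 Acta2-high cells 23 were cycling (38.3% [26.1 to 51.8]), against 25.6% [22.1 to 29.4] outside, and the deeper counts of Acta2-high cells stand beside this difference. Of Pdgfrb-high cells 5 were cycling (16.1% [5.45 to 33.7]). At 3000 UMIs Acta2 was seen in 30.5% of fibroblasts, 7.55% of Cldn5 and 1.66% of C1q barcodes, and Pdgfrb in 19.7%, 6.60% and 0.253%. Unthinned, the shares in fibroblasts were 53.7% and 55%, and in C1q barcodes 6.81% and 1.09%.

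Pdgfrb-high cells carried more RNA of basement membrane genes and of some pericyte genes. Against the other fibroblasts, 172 of 6576 genes (2.62%) were higher and 219 (3.33%) lower, with a median log2 ratio of 0.01. Of 14 measured basement membrane genes 8 were higher and none lower, with a median of 1.22. Col4a1 was at 817 CPM [735 to 905] against 237, Col15a1 at 172 against 22, Col18a1 at 375 against 66.4 and Lama1, a laminin chain, at 80.3 against 6.62. The proteoglycans Dcn and Lum were at 6407 and 839 CPM against 2840 and 204. The cells lay mainly in 2 of the clusters described below, and the levels within each were as follows. Within cluster 3, which held 15 of the 31, Col4a1 was at 499 CPM in Pdgfrb-high and 497 in other cells. Col15a1 was there at 68.7 and 59.9, Col18a1 at 325 and 255, Dcn at 10672 and 9654, and Lum at 1279 and 752. Within cluster 5, which held 11, Col4a1 was at 1135 and 593, Col15a1 at 250 and 102, and Col18a1 at 423 and 205. Dcn was there at 3932 and 3589, and Lum at 599.97 and 669. With all clusters pooled, genes lower in Pdgfrb-high cells included Crabp2 (40.2 against 441 CPM) and the imprinted RNA H19 (75.9 against 650.4). Prg4, the lubricant lubricin, was at 51.3 against 391, and Dmkn had 0 UMIs in Pdgfrb-high cells and 190.3 CPM in the others. In cluster 3 Crabp2 was at 68.7 CPM in Pdgfrb-high and 123 in other cells, and H19 at 0 and 47.1. Prg4 was there at 68.7 and 111, and Dmkn at 0 and 25.7. In cluster 5 Crabp2 was at 0 and 13.8, H19 at 12.9 and 16.4, Prg4 at 38.8 and 207, and Dmkn at 0 in both. The other cells of both clusters were thus below the pooled levels of the other fibroblasts for these genes.

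Of 9 measured pericyte genes outside the gate 5 were higher in Pdgfrb-high cells and none lower, with a median of 1.32. Rgs5 was at 145 CPM against 2.24, Vtn (vitronectin) at 683 against 89 and Kcnj8, a potassium channel, at 46.9 against 1.16. Sham mural cells, which were chosen on Rgs5, held 14791 CPM of Vtn and 1262 of Kcnj8. Rgs5 came from very few cells. An Rgs5 UMI was seen in 25 of the 626 fibroblasts, and 2 cells at 5 per 10000 or more, both Pdgfrb-high, held 63 of the 90 Rgs5 UMIs. Without these 2 cells the log2 ratio of Rgs5 was 0.26 instead of 3.66, that of Kcnj8 0.95 instead of 2.35 and that of Vtn 2.33 instead of 2.81. Col15a1 and Col18a1 were at 2.42 and 2.24 without them, from 2.51 and 2.33. Vtn also followed the clusters, as it is a leading gene of cluster 3. With the 2 cells kept, Vtn within cluster 3 was at 992 CPM in Pdgfrb-high and 610 in other cells. Within cluster 5 it was at 565 and 145. The other pericyte genes called higher lay mostly in the Pdgfrb-high cells of cluster 5. Rgs5, Kcnj8, Notch3 and Abcc9 had 64, 17, 9 and 8 UMIs there, of 231677 in all. In the Pdgfrb-high cells of cluster 3 they had 1, 2, 0 and 4, of 160226.

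The Pdgfrb-high cells fell mainly into 2 of the 8 clusters found among the fibroblasts, 15 in cluster 3 and 11 in cluster 5, with different genes. Those in cluster 3 had 1167 CPM of Wnt4 and 49.9 of Tnc, and those in cluster 5 had 0 and 660.4. Other cells of cluster 3 were also at 1283 CPM for Wnt4. Lcn2, the iron-binding lipocalin, was at 143 CPM in Pdgfrb-high cells against 15.6 but seen in only 19.4% of them, and 62 of its UMIs lay in those of cluster 3. Klk6, an oligodendrocyte protease, was at 194 against 47.1 CPM, and 4 of 8 oligodendrocyte markers were called higher. The Klk6 log2 ratio went from 1.84 to -0.53 without called doublets.

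Acta2-high cells carried a wider contractile set. Of 15 measured contractile genes outside the gate 8 were higher than in the other fibroblasts and none lower, with a median log2 ratio of 1.06. Over all 6221 genes 37 (0.595%) were higher and 111 (1.78%) lower, with a median of -0.01. Tagln, the actin-bundling transgelin, was at 2304 CPM [2224 to 2387] against 421. Actg2, the enteric smooth muscle actin, was at 216 [192 to 243] against 28.9, Myl9, a myosin light chain, at 394 against 85.2, and the tropomyosin Tpm2 at 893 against 294. Tpm1, Cald1 and Flna, at 1160, 1595 and 461 CPM against 758, 953 and 277, stayed within 2-fold. Myh11, the smooth muscle myosin, was at 1.48 CPM in Acta2-high cells and 298 in sham mural cells, whereas Cnn1, calponin, was at 54.6 and 1.24. Sham mural cells held 843 CPM of Acta2 and 1652 of Myl9.

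Col1a1 was within 2-fold in Acta2-high cells, at 5759 against 4723 CPM. Of 20 measured collagens 3 were higher, Col5a3, Col7a1 and Col15a1, and none lower. Their log2 ratios were 1.08, 1.10 and 1.06, and 1.26, 0.75 and 0.22 in male-derived cells and 0.98, 1.30 and 0.61 in female-derived cells. The matrix proteins Tnc (tenascin C) and Postn (periostin) were at 479 and 257 CPM against 100.1 and 121. None of 25 TGF-beta genes passed 2-fold, with 0.595% and 1.78% of all genes called higher and lower. The nearest to it was Inhba, at 314 against 167 CPM. Among genes lower in Acta2-high cells, Igfbp5 was at 151 against 1301 CPM, Mgp at 1200 against 5998, Sfrp4 at 159 against 869 and Igfbp3 at 46.5 against 252. Of 15 Wnt and retinoic acid genes 6 were lower and 1, Aldh1a3, higher. Ccl11, an eosinophil chemokine, was at 120.3 against 25.4 CPM but seen in 13.3% of Acta2-high cells, and in male-derived cells alone its log2 ratio was -0.075 instead of 1.88. Of the 60 Acta2-high cells, 22 lay in cluster 5 and 14 in cluster 4 of the clusters described below. Tnc, Col7a1, Col15a1, Aldh1a3 and Ccl11 are leading genes of cluster 5, Postn of cluster 4, Mgp of cluster 1 and Igfbp5 of cluster 6. Levels of these genes in Acta2-high cells were not compared within clusters. Without cluster 3 the log2 ratios were -2.74 for Igfbp5 (from -3.02), -2.32 for Mgp (from -2.31) and -1.40 for Igfbp3 (from -2.21). That setting keeps cluster 1, with 6 of 168 cells Acta2-high, and cluster 6, with none of 37. The part of these 2 clusters in the ratios of Mgp and Igfbp5 was therefore not tested.

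In cycling cells all 23 measured genes of the G2 and mitosis list outside the gate were higher than in the other fibroblasts, with a median log2 ratio of 2.46, as were 11 of 19 S phase genes, with a median of 1.09. Over all 6302 genes 176 (2.79%) were higher and 77 (1.22%) lower, with a median of 0.00. Ube2c, the ubiquitin carrier of the anaphase complex, was at 535 CPM [514 to 558] against 24.7. Prc1, which builds the central spindle, was at 243 against 15.1, Cdk1, the mitotic kinase, at 251 against 22.5 and Cdc20, an activator of the anaphase complex, at 182 against 31.4. Of replication genes, Rrm2 was at 143 against 33 CPM and Mcm5 at 73 against 26.7, whereas Pcna, at 55.3 against 25.6, stayed below the call with 10 CPM added. Histone H2A and H1 transcripts, Hist1h2ap and Hist1h1b, were at 987 and 204 against 92.9 and 14.6.

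Genes of mitosis are known to share promoter elements, the CHR element and CCAAT boxes. Ube2c, Prc1, Cdk1 and Cdc20, named above, are shown as examples that hold both, Prc1 at its second start only. They do not stand for the genes with the largest ratios. Cdc20 had a log2 ratio of 2.21. Cenpf (3.23), Cenpe (2.77), Ccnb1 (2.66) and Birc5 (2.51) were above it and held no CHR letters in the 250 bases before the start. Shown are the 150 bases before the RefSeq transcript start (build GRCm38.p6, the second start for Prc1). Each CHR letter run TTTGAA (or TTCAAA on the other strand) and each CCAAT (or ATTGG) is in capitals. They lie at chr2:164769779-164769928 on the plus strand for Ube2c, chr7:80294326-80294475 on the plus strand for Prc1, chr10:69352913-69353062 on the minus strand for Cdk1 and chr4:118437344-118437493 on the minus strand for Cdc20. Each run is written 5′ to 3′ along its gene, and the last base is the 1 just before the start.
Ube2c: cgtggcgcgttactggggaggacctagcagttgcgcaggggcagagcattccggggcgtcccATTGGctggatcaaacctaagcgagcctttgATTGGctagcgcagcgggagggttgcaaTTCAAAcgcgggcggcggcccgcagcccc
Prc1: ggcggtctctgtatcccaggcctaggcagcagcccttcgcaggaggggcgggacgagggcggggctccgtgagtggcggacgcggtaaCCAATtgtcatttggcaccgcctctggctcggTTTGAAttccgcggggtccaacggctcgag
Cdk1: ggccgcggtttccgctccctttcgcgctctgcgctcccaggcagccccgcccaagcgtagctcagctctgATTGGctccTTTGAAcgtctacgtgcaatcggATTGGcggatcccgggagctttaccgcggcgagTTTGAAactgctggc
Cdc20: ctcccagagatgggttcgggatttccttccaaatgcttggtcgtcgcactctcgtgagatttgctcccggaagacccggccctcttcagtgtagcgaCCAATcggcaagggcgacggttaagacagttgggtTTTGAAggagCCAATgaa
The first start of Prc1, not shown, has CCAAT but no CHR letters in its 150 bases. No CHR match overlaps a CCAAT match in these 4. The CHR letters begin 29 bases before the start in Ube2c, 30 in Prc1, 71 and 15 in Cdk1 and 18 in Cdc20, and a CCAAT box lies upstream of the CHR letters nearest the start in all 4. In the 250 bases before the start, both motifs were found in 9 of 21 promoters of the 20 G2 and mitosis genes with an entry, and in 5.55% of all 32851 promoters. The CHR letters, with or without CCAAT, were in 42.9% and 15.99%, and CCAAT in 90.5% and 33.8%. Of 18 promoters of S phase genes 1 held both. Mki67 and Top2a, the gate genes, are among the 9 promoters with both. Ccnb1, Plk1 and Cenpf held CCAAT only, and Birc5 and Nusap1 neither. A match is a description of these letters, and no match says only that they are not in this window.

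None of 20 collagens passed 2-fold between cycling and other fibroblasts. Col1a1 was at 4557 against 5012 CPM and Lox at 687 against 752. Dcn was lower, at 1777 against 3682. Complement genes were lower in 4 of 5 cases, with Serping1 at 180.4 against 414 CPM. Apod, the lipid-binding apolipoprotein D, was at 179 against 1395, Saa3, an acute phase protein, at 17.7 against 259.8 and Wnt4 at 27 against 248. Saa3 was seen in only 11.9% of cycling cells and 18.8% of the other fibroblasts. Cluster 3, in which 8 of 114 cells were cycling, carried much of the Wnt4 RNA. Without that cluster the log2 ratios were -0.57 for Dcn (from -1.05), -0.68 for Wnt4 (from -2.80) and -0.99 for Serping1 (from -1.15), all within 2-fold. Those of Apod and Saa3 were -1.80 (from -2.89) and -3.09 (from -3.29), and the number of lower genes was 44 in place of 77.

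Cycle genes were measured in the other cells as well. None of 24 G2 and mitosis genes was called higher or lower against the other 3 dpi barcodes, and Mki67 was at 112 CPM in fibroblasts, 147 in C1q, 99.6 in Cldn5 and 392 in Ptprz1 barcodes. At 3000 UMIs Mki67 was seen in 18.2% of fibroblasts, 19.9% of C1q, 14.2% of Cldn5 and 38.6% of Ptprz1 barcodes, where the last group lost 28 of 763 barcodes. Unthinned, the shares were 41.4%, 33.8%, 31.9% and 52.6%.

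**Figure D3:**
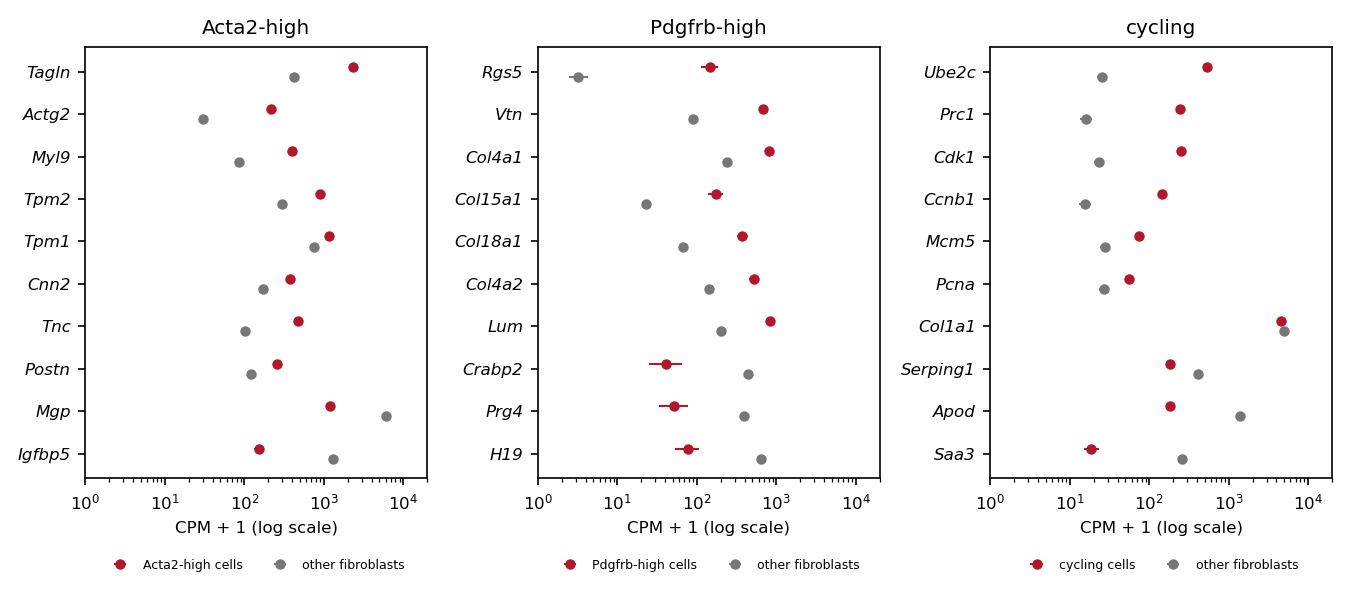
Levels of 10 genes per panel as CPM plus 1 on a log axis in the cells of 1 state (red) and in the other fibroblasts (grey); bars are 95% Poisson intervals, shorter than the symbol for most points. In Acta2-high cells Tagln is at 2304 against 421 CPM while Mgp and Igfbp5 lie to the left of the grey points. In Pdgfrb-high cells Rgs5 and Vtn lie to the right, but 2 of these cells held 63 of the 90 Rgs5 UMIs of all fibroblasts. In cycling cells Col1a1 nearly coincides with the grey point.

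Leiden clustering of the 626 cells on their own gave 8 clusters, which are called by number and leading genes, and since they were built from these same genes their differences are a description. Cluster 1 (168 cells) was led by Krtdap, Prok2, Slc47a1 and Mgp, with Mgp at 12987 CPM, Eln at 1457 and Sfrp4 at 1529. Only 4 of its cells were cycling and 6 Acta2-high. Cluster 2 (121 cells) was led by cell cycle genes and held 96 of the 168 cycling cells. Outside the cycle, Foxd1 was at 481 CPM in cluster 2 and 489.8 in cluster 1, Col6a1 at 879 and 1423, and Mgp at 5277.

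Cluster 3 (114 cells) had Wnt4, Slc7a11 and Rbp4 among its leading genes. Wnt4 was at 1269 CPM and at most 20.1 in clusters 1, 2, 4, 5 and 6. Slc7a11, the cystine transporter, was at 1611, the retinol carrier Rbp4 at 579, the GABA transporter Slc6a13 at 358 and Aldh1a2, which makes retinoic acid, at 754. Dcn was at 9777 CPM, Lum at 816 and Igfbp3 at 1014, whereas Col1a1 was at 2773 and Col12a1 at 49.7, against 4697 and 954 in cluster 1. Its median depth, 10572 UMIs, was the lowest of the 8 clusters. Pdgfrb-high cells made up 13.2% [7.56 to 20.8] of it and cycling cells 7.02% [3.08 to 13.4].

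Cluster 4 (83 cells) combined fibril matrix with chemokines. It was led by Tnn (tenascin N), Postn and Cxcl5, with Postn at 729.9 CPM, Cxcl5 at 1188 and Prg4 at 1407. Col1a1 was at 9716 CPM, Lox at 1507 and Timp1 at 4218. Cxcl1, Ccl2 and Ccl7 were at 1103, 964 and 780.2, and in cluster 1 at 166, 164 and 143. The basement membrane chain Col4a1 was at 26.6 CPM, against 683 in cluster 5. Of its cells 28 were cycling (33.7% [23.7 to 44.9]) and 14 Acta2-high (16.9% [9.54 to 26.7]). Hbb-bs, a haemoglobin gene of red cells, was at 255 CPM and seen in 16.9% of its cells.

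Cluster 5 (60 cells) held 22 of the 60 Acta2-high cells, 36.7% [24.6 to 50.1] of its cells, and 11 of the 31 Pdgfrb-high. It was led by Ccl11, Il11 and Tfpi2, an inhibitor of coagulation proteases. Il11 was at 421 CPM and at most 36.6 in clusters 1 to 4 and 6. Acta2 was at 1175, Tagln at 1573, Tnc at 594 and Inhba at 374. Crabp2, Sfrp4 and Eln, high in clusters 1 and 6, were at 11.5, 7.89 and 10.8. Ccl2 and Ccl7 were at 911 and 935 CPM, and Cxcl5 was at 38. Spp1 was at 4157 CPM here and at most 1824 in clusters 1 to 4 and 6.

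Cluster 6 (37 cells) was led by C3, Mmp3 and Pi16, a peptidase inhibitor of adventitial fibroblasts, with Pi16 at 512 CPM, Ly6a at 1240 and Igfbp5 at 5761. It had the highest collagen sum, with a median of 354 per 10000, and Col3a1 at 14877 CPM, Col8a1 at 2806 and Eln at 2669. Mt1 and Mt2, the metallothioneins, were at 4890 and 2213, against 255 and 88.3 in cluster 5. None of its cells was Pdgfrb-high or Acta2-high, which allows a share of up to 8.11% of its cells at 3 counts, or 9.49% by the Clopper-Pearson bound, and 3 were cycling. C3 and Mmp3 were each seen in few of its cells, 32.4% and 18.9%.

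Clusters 7 and 8 were led by genes of other cell types. Cluster 7 (25 cells) had the myelin gene Mag at 1028 CPM and the oligodendrocyte protease gene Klk6 at 843, and cluster 8 (18 cells) had Lyz2 at 6821 and Pf4 at 1874, both of macrophages. Every cell of both had been marked as a doublet, and their collagen sums, with medians of 94.7 and 79.4 per 10000, met the rule. The C1q limit had kept out 42 further barcodes that passed on collagen. Without the 43 cells, a setting chosen after seeing the data, 864 genes were higher and 896 lower in fibroblasts than in the other barcodes.

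**Figure D4:**
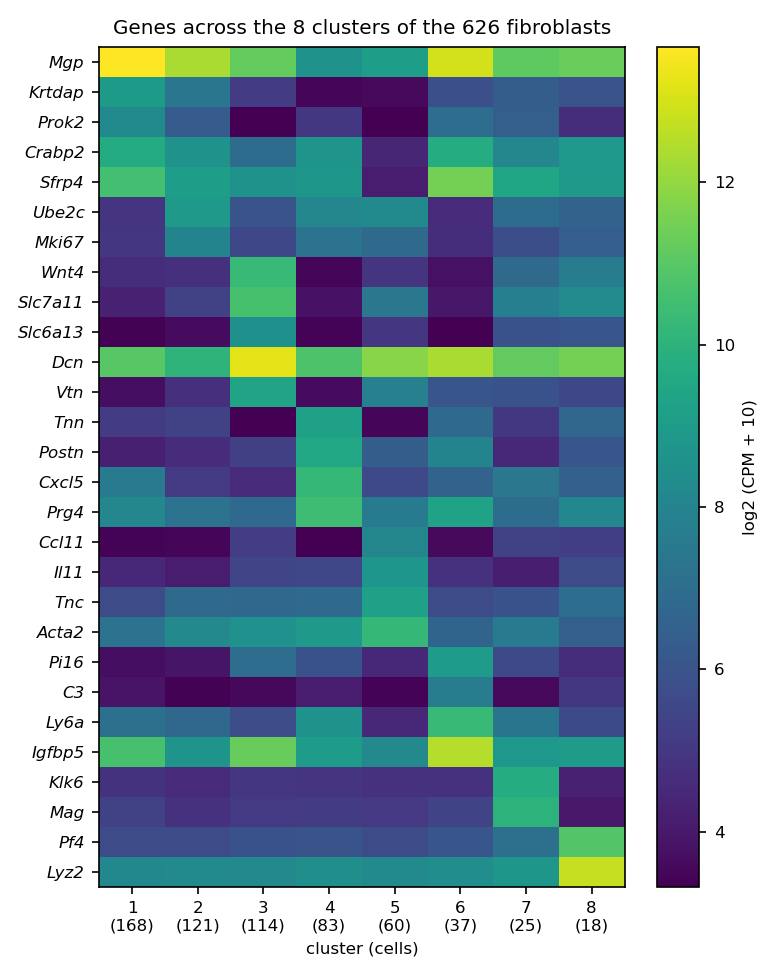
Levels of 28 genes (rows) in the 8 clusters of fibroblasts (columns, with the number of cells), coloured as log2 of CPM plus 10. Each of clusters 3 to 6 has its own block of bright cells, from Wnt4 in cluster 3 to Ly6a in cluster 6, and Klk6 with Mag and Pf4 with Lyz2 are brightest in clusters 7 and 8.

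**Figure D5:**
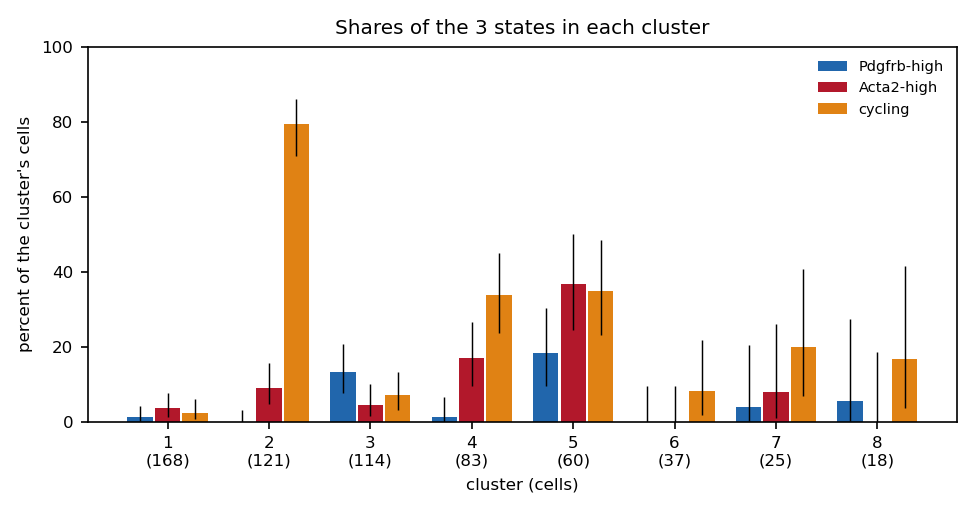
Percentage of each cluster's cells in the Pdgfrb-high, Acta2-high and cycling states, with 95% Clopper-Pearson intervals; a cell can be in more than 1 state. Cycling cells make up 79.3% of cluster 2, Acta2-high cells 36.7% of cluster 5, and Pdgfrb-high cells 13.2% of cluster 3 and 18.3% of cluster 5.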

How the data were processed

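Single cells of 2 pooled libraries were sequenced with 10X 3′ version 3 chemistry and paired reads of 150 bases, per the labels' protocols. The authors deposited a table of UMI counts per gene and barcode for each library. Cell Ranger and Seurat appear in the submitters' processing notes with no version, as does the build GRCh38, although 22164 of the 22480 gene symbols are in the mouse GENCODE M21 annotation. No mitochondrial gene is among the rows. The versions used, the cells kept before deposit and any step for free RNA or doublets are not given in the sources used here.

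Counts were used as deposited. The sham and 3 dpi groups come from the sample titles. UMIs were summed per group of cells, scaled to CPM and compared as log2 ratios with 10 CPM added, among genes at 20 CPM or more in either group, and called at 2-fold. No test was run, since each group is 1 library, and cells are not replicates. Each of the Cldn5, C1q, S100a8/9 and Ptprz1 groups holds 3 dpi barcodes over that limit only, with low collagen. Doublets were simulated (2 per barcode, 50 neighbours), and the 1478 3 dpi barcodes (10.9%) with the highest doublet scores were marked and kept. That number was not detected but set beforehand, from an assumed 0.8% of doublets per 1000 barcodes. Fibroblasts were clustered alone with leidenalg 0.10.2 (2000 variable genes, 20 components, 15 neighbours, resolution 0.5). Shares of cells with a UMI were also taken after thinning each cell to 3000 UMIs. Scripts ran in Python 3.11.15 with scipy 1.17.1, scikit-learn 1.9.0, pandas 2.3.3 and numpy 2.4.6, and the calls were tested on simulated data. Promoters come from a RefSeq table of GRCm38.p6.

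Genes named are members of fixed lists with the highest level or largest ratio, the 25 highest ratios of fibroblasts, the 15 highest and 10 lowest of each state (at 100 CPM, 20 UMIs and 10% of cells or more) and the 10 leading genes of each cluster. The members and lists were chosen with earlier results of these data known. Some list members, such as Fos, Myh11 and Ctsl, were named for their known role after their values were seen. Cdc20 was named although other genes of its list had larger ratios. Alternatives covered the UMI and collagen minimums, state thresholds, depth, called doublets, the CPM added, the filter, the scaling, free RNA, a mean over cells and the sex of origin of cells. Without cluster 3, without clusters 7 and 8, and without the cells highest in Rgs5 were chosen after seeing the data.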

Additional observations from a re-analysis of the deposited data

How the results depend on the processing

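No paired analysis was possible because each group is 1 library. With 1 library a group, no value has a replicate error, and intervals cover counting only. The share of fibroblasts was 5.37% at a collagen minimum of 15 and 3.93% at 60 per 10000. With state thresholds at a lower level by a factor of 2 the shares of Pdgfrb-high, Acta2-high and cycling cells were 15.8%, 16.9% and 37.1%, and at a higher level by that factor 0.639%, 3.83% and 17.6%. Thinned to 3000 UMIs, cycling cells were 13.8%. The cause of each of these shifts was not tested beyond the threshold or depth itself.

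Among genes at 100 CPM or more, 344 were higher and 277 lower in fibroblasts, 60 and 71 in Pdgfrb-high, 15 and 49 in Acta2-high and 48 and 32 in cycling cells, since fewer genes were counted. With 1 CPM added, the counts were 307 and 381 in Pdgfrb-high and 58 and 198 in Acta2-high cells. In female-derived cells, of which 6 were Pdgfrb-high and 10 Acta2-high, 848 were higher and 985 lower in Pdgfrb-high, 188 and 391 in Acta2-high cells, and 163 lower in cycling cells. In male-derived cells 167 were lower in Acta2-high cells. Without cluster 3, which was chosen after seeing the data, 409 were lower in Pdgfrb-high and 44 in cycling cells.

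Among named genes that passed 2-fold, 18 log2 ratios had the opposite sign under an alternative, and the cause was not tested. Sign changes of ratios below 2-fold were not counted. In Pdgfrb-high cells without called doublets, Klk6 was at -0.53 and Mag at -0.40, and the same values were found without clusters 7 and 8. In male-derived Pdgfrb-high cells Klk6 was at -1.55, Mag at -1.64, Lcn2 at -0.19 and Hbb-bs at 0.61. In female-derived ones Lcn2 was at -0.68, Aldh1a2 at -0.33, Adm at -0.98 and Wnt4 at -1.35. Without cluster 3, Lcn2 was at -0.46 and Wnt4 at -1.02. In Acta2-high cells Ccl11 was at -0.075 in male-derived and Rgs5 at -0.76 in female-derived cells. In female-derived cycling cells Hbb-bs was at 0.22 and Prok2 at 0.018.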

Other observations

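Both libraries pooled male and female mice, so Xist and Y-linked genes told the sex of origin of many barcodes. Among fibroblasts with UMIs of 1 sex only, 369 of 493 were male-derived (74.8% [70.8 to 78.6], Clopper-Pearson, counting error only). The share was 49.6% [48.5 to 50.7] among the other 3 dpi barcodes, 59.2% [53.0 to 65.1] in the Cldn5 group and 49.2% in the C1q group, and 43.3% in the sham library. It ran from 66.7% in cluster 5 to 90.6% in cluster 6 over clusters 1 to 6. With 5 mice of each sex pooled, the mice behind these cells cannot be told apart, so the share was not tested. Barcodes with UMIs of both sexes made up 7.68% of fibroblasts with a sex-linked UMI and 7.63% of the other 3 dpi barcodes.

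Annexins, galectins and S100 genes, which bind membranes, sugars or calcium, were called higher in fibroblasts in 9 of 14 cases and lower in 3, with a median log2 ratio of 1.31, beside 12% and 12.3% of all genes. Anxa1, annexin A1, was at 654 CPM against 61.4 in the other 3 dpi barcodes, and Lgals1, galectin-1, at 3736 against 1686. Lgals3, galectin-3, was lower at 409 against 2278. Of 14 genes of metal, heme and oxidative stress, 2 were higher, a share near that of all genes, and 4 lower, among the latter the iron store genes Fth1 and Ftl1. Fth1 was at 15899 CPM against 35472. Of 18 glycolysis and hypoxia genes 1 was higher, a share no larger than that of all genes, and it was Adm (adrenomedullin), at 83.2 against 15.1 CPM.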
